A study of Mus musculus with 2 samples.

Results

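The prostaglandin genes examined here are 8 of the 31054 genes counted in each library, and were chosen by name: the cyclooxygenases Ptgs1 and Ptgs2, the terminal synthases Ptges, Ptgis and Ptgds, and the receptors Ptger2, Ptger4 and Ptgfr. They were measured in CD31- CD45- cells from gonadal fat of male mice aged 18 months, p16-CreERT2/R26-LSL-tdTomato, that had been given tamoxifen. Both sorted groups carried this genotype and this treatment, and were separated by tdTomato fluorescence: the Tom+ and the Tom- cells each went into 1 droplet library. The reporter is switched on by a Cre that the p16 gene drives, so Tom+ marks cells in which that promoter had been active by the time of tamoxifen. The number of mice behind each library is not given in the sources used here. Barcodes were kept above 1000 and below 7000 genes, where mitochondrial transcripts made up under 8% of the unique molecular identifiers (UMIs). Of these, a cell with 10 or more UMIs of Msln, Upk3b, Krt19, Lrrn4 and Upk1b together was called mesothelial, which gave 250 cells in the Tom+ and 1887 in the Tom- library. A cell with fewer than 5 was called stromal, which gave 3263 and 4800 cells, and the 11 and 30 cells between these limits were left out.

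Prostaglandins are short-lived lipid signals made from arachidonic acid, which phospholipases release from membranes. The cyclooxygenases, Ptgs1 (usually constitutive) and Ptgs2 (inducible by inflammatory and mechanical stimuli), turn it into prostaglandin H2, and terminal synthases convert that into prostaglandin E2 (Ptges), prostacyclin (Ptgis) or prostaglandin D2 (Ptgds). In adipose tissue these products act on nearby cells through receptors, and are known as regulators of lipolysis, inflammation and the differentiation of adipocyte progenitors.

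The total was 61119807 UMIs in the Tom+ and 96872394 in the Tom- library, with a median of 14235 and 11270 UMIs per stromal cell and 18601.5 and 14753 per mesothelial cell. Levels are UMIs summed over a class of cells in 1 library and given as CPM, counts per 1000000 of those UMIs. With 1 library per sorted group there is no replicate check and no test, and a difference between the groups cannot be told apart from a difference between the preparations. Intervals in parentheses are 95% intervals and cover counting error only. The 5 mesothelial markers summed to 4844 and 4796 CPM in mesothelial and to 6.63 and 27.3 CPM in stromal cells, which the class rule fixed. Of markers the rule did not use, 7 fibroblast markers summed to 29801 and 31188 CPM in stromal and 13761 and 15407 CPM in mesothelial cells. Of these only Cd34 was higher in mesothelial cells (435 and 417 against 294 and 292 CPM). The 4 epithelial markers summed to 12.5 and 7.36 CPM in stromal and 451 and 497 CPM in mesothelial cells. Krt8 (353 and 398 CPM) and Cldn3 (94.5 and 94.9 CPM) made up most of the mesothelial sums. Cdh1 was at 1.13 CPM or less in each group. Epcam was lower in mesothelial than in stromal cells of Tom+ (1.69 against 10.1 CPM) and higher in Tom- (3.83 against 0.864 CPM). In stromal cells tdTomato reached 211 CPM in the Tom+ and 13.1 CPM in the Tom- library, and in mesothelial cells 780 and 8.25 CPM. A tdTomato UMI was found in 28.6% of Tom+ and 13.1% of Tom- stromal cells, and in 79.2% and 11.4% of mesothelial cells. The 10% of Tom+ stromal cells with the most tdTomato held 92.4% of its UMIs there. Stromal Cdkn2a, the p16 gene, stood at 4.66 CPM (Tom+) and 5.79 CPM (Tom-), and its 3′ tags do not separate p16 from the other transcript of the locus. The stromal class was set by its lack of mesothelial markers, so it also held cells of a CD45 lineage, and 10 immune markers summed to 476 CPM in its Tom+ and 230 CPM in its Tom- cells. The barcode sequences of 2224 droplets were found in both libraries, 506 of them among the Tom+ cells and 284 among the Tom- cells kept, and 9 were kept in both. They were spread unevenly, with 404 of 3263 stromal and 100 of 250 mesothelial cells in the Tom+ library. In the Tom- library they were 75 of 4800 stromal and 207 of 1887 mesothelial cells.

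The promoters of the cyclooxygenases and of Ptgds, the 3 genes whose stromal level differed most between the libraries, are shown to place the results that follow. Ptgs2 lies at chr1:150100031-150108227 on the plus strand of GRCm38, Ptgs1 at chr2:36230426-36252272 on the plus strand and Ptgds at chr2:25466709-25470046 on the minus strand. Each line gives the 250 bases before the RefSeq start of the gene on GRCm38.p6, read 5′ to 3′ on the strand of the gene, at chr1:150099781-150100030, chr2:36230176-36230425 and chr2:25469750-25469999. The last lies within the annotated extent of Ptgds, whose longest transcript starts further upstream. Capitals mark a C/EBP motif (TTGCGCAA), an AP-1 motif (TGACTCA) or a GC box (GGGCGG), each searched on both strands.
Ptgs2: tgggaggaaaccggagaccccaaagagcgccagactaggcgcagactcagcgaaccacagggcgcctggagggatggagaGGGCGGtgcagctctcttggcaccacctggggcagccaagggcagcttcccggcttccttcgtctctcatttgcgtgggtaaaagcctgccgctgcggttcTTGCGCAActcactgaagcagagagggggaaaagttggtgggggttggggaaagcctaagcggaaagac
Ptgs1: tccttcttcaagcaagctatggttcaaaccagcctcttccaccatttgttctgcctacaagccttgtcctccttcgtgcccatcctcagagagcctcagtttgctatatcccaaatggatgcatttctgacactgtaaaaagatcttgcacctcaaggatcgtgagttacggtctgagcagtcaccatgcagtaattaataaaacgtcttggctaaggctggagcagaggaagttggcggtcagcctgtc
Ptgds: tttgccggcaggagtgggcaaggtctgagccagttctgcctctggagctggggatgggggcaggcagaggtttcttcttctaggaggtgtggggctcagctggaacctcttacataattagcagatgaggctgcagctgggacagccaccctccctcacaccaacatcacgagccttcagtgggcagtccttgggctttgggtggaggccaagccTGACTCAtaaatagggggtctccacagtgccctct
The C/EBP motif was found in the Ptgs2 window 69 to 62 bases before the start, and in 0.164% of all 32851 promoter windows of this length. The AP-1 motif was found in the Ptgds window 35 to 29 bases before the start, and in 4.46% of all windows. The GC box was found in the windows of Ptgs2, Ptges, Ptger4 and Ptgfr, and in 32.7% of all windows. None of 3 further motifs searched (TGACGTCA, CACGTG and TATAAA, held by 1.55%, 6.02% and 12.4% of windows) was found in a window of these genes. A match describes letters, not a bound site. Windows were available for 7 of the 8 genes, Ptgis being the other.

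Mesothelial and stromal cells expressed these genes in different proportions, in both libraries. Ptgis was the most abundant of the 3 terminal synthases examined in both classes. It was 7.09-fold (Tom+) and 4.73-fold (Tom-) higher in mesothelial than in stromal cells. Ptgs1 was also higher in mesothelial cells, and Ptges was higher in stromal cells, in both libraries. Within stromal cells, Ptgs1 and Ptgs2 were lower and Ptgds was higher in the Tom+ than in the Tom- library.

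**Figure D1:**
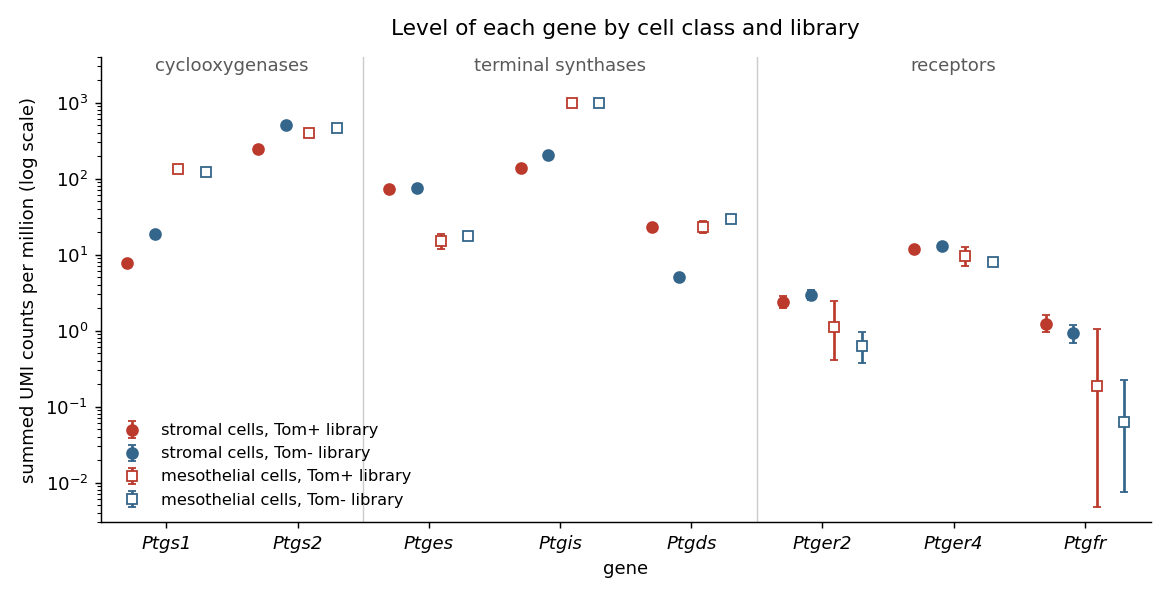
Level of the 8 genes as summed UMI counts (CPM, log scale) in stromal (circles) and mesothelial cells (open squares) of the Tom+ (red) and Tom- (blue) library, with bars for the 95% Poisson interval of the count. Ptgis sits at 983 and 974 CPM in mesothelial cells, and the receptors Ptger2 and Ptgfr sit at or below 2.92 CPM in every group.

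Of the 8 genes, 6 reached a mean of 5 CPM in each comparison, and Ptger2 and Ptgfr did not. Of those 6, 1 was at least 1.5-fold higher (Ptgds) and 2 were at least 1.5-fold lower (Ptgs1 and Ptgs2) in Tom+ than in Tom- stromal cells. Among all 9778 genes at this level, 3.86% were that much higher and 3.25% that much lower, and the median log2 ratio was 0.07. The median log2 ratio of the 6 genes was -0.37. In mesothelial cells none of the 6 passed 1.5-fold between the libraries, where 1.87% of 10014 genes were higher and 1.16% lower. Between the classes, 2 of 6 were at least 2-fold higher in mesothelial than in stromal cells of the Tom+ library (13.1% of 10240 genes) and 1 of 6 was at least 2-fold lower (10.1%). In the Tom- library 3 of 6 were higher (11.9% of 10019 genes) and 1 of 6 was lower (9.22%).

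**Figure D2:**
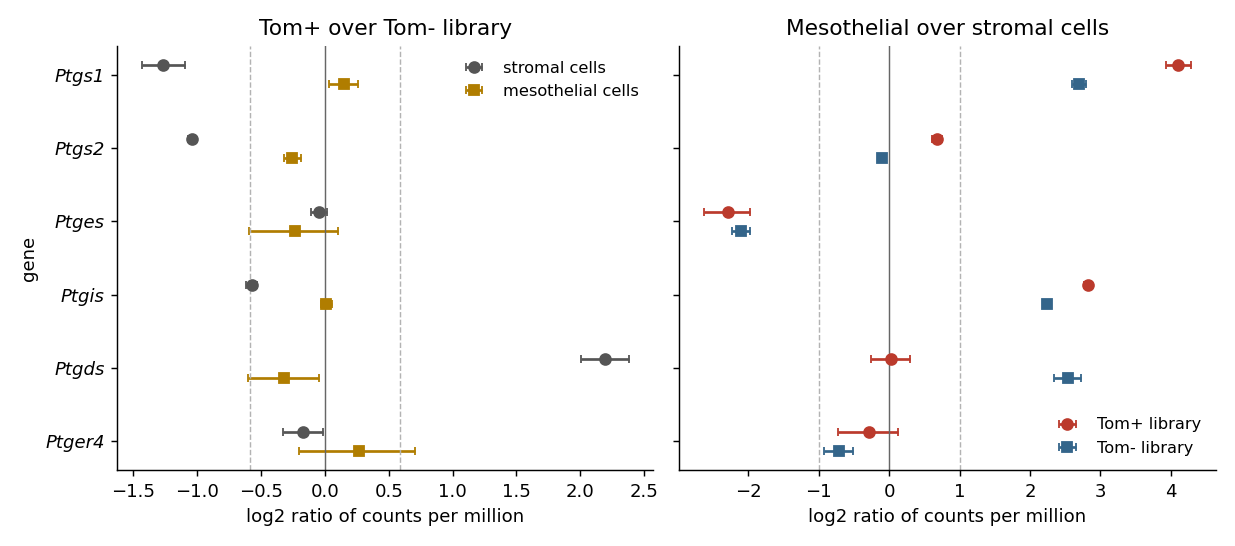
Log2 ratio of CPM for the 6 genes whose mean reached 5 CPM, with 95% counting intervals. Left, Tom+ over Tom- in stromal (circles) and mesothelial cells (squares), with dashed lines at 1.5-fold; right, mesothelial over stromal cells in each library, with dashed lines at 2-fold. Ptgs1 and Ptgs2 lie below and Ptgds above the 1.5-fold lines in stromal cells, while all 6 mesothelial values lie between them.

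Ptgs1 (ENSMUSG00000047250), the cyclooxygenase that supplies prostaglandins at rest, was mainly a mesothelial transcript. In mesothelial cells it reached 135 CPM (125 to 145) in the Tom+ and 121 CPM (118 to 125) in the Tom- library, and in stromal cells 7.79 CPM (7.04 to 8.59) and 18.7 CPM (17.6 to 19.9). The mesothelial level was thus 17.3-fold the stromal level in the Tom+ and 6.49-fold in the Tom- library. In stromal cells Ptgs1 was 2.40-fold lower in Tom+ (2.14 to 2.70), a log2 ratio of -1.26 at percentile 0.44 of all genes. With each cell thinned to 7461 UMIs, a Ptgs1 UMI was found in 5.10% of Tom+ and 10.5% of Tom- stromal cells (8.31% and 15.1% without thinning), against 60.3% and 54.7% of mesothelial cells. At the ratio of Ptgs1 to the 5 mesothelial markers seen in mesothelial cells, the markers left in stromal cells would bring 0.184 CPM of Ptgs1 in Tom+. In Tom- they would bring 0.693 CPM, and these are 2.37% and 3.70% of the stromal levels. The class rule limits those markers in stromal cells, and the actual part of free mesothelial RNA was not tested.

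Ptgs2 (ENSMUSG00000032487), the inducible cyclooxygenase, was expressed within 2-fold of the same level in both classes of each library, and was the more abundant of the pair in each group. Stromal cells held 245 CPM (240 to 249) in the Tom+ and 503 CPM (497 to 509) in the Tom- library, and mesothelial cells 392 CPM (376 to 410) and 468 CPM (460 to 475). The lowest of the 4 groups was therefore Tom+ stromal cells. Ptgs2 was 2.06-fold lower in Tom+ than in Tom- stromal cells (2.01 to 2.10), a log2 ratio of -1.04 at percentile 0.87. A Ptgs2 UMI was found in 28.0% of thinned Tom+ and 43.6% of thinned Tom- stromal cells (34.3% and 48.5% without thinning), and neither class lacked the gene and could serve as background. Both the share of positive cells and the count within them were lower in Tom+: positive thinned cells held a mean of 6.90 UMIs in Tom+ and 8.49 in Tom-, and cells with 10 or more made up 6.10% and 13.3%. The distribution was uneven, since the 10% of stromal cells with the most Ptgs2 held 80.8% of its UMIs in the Tom+ and 67.4% in the Tom- library, with up to 168 and 171 UMIs in a cell. In mesothelial cells the log2 ratio of Tom+ over Tom- was -0.25 (-0.32 to -0.19), and it was 0.00 without the cells whose barcode was found in both libraries.

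The 3 terminal synthases divided the cells in different ways. Ptgis (ENSMUSG00000017969, chr2:167191805-167240604), prostacyclin synthase, reached 983 CPM (956 to 1010) in mesothelial cells of the Tom+ and 974 CPM (963 to 985) in those of the Tom- library, and nearly every thinned mesothelial cell held a UMI (98.8% and 99.7%). Stromal cells had less, with 139 CPM (135 to 142) and 206 CPM (202 to 210) respectively. That stromal difference was 1.49-fold (1.44 to 1.53), just short of the 1.5-fold limit, and passed it with median-of-ratios scaling (log2 ratio -0.57, then -0.64).

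Ptges (ENSMUSG00000050737, chr2:30889471-30929863), the inducible microsomal prostaglandin E synthase, showed the opposite class pattern. Its stromal level was 72.8 CPM (70.5 to 75.2) in the Tom+ and 75.3 CPM (73.0 to 77.5) in the Tom- library, against 14.8 CPM (11.7 to 18.5) and 17.5 CPM (16.1 to 19.0) in mesothelial cells. Mesothelial cells were lower 4.91-fold in the Tom+ and 4.31-fold in the Tom- library. Between the libraries, the log2 ratio in stromal cells was -0.05 (-0.11 to 0.02), so a difference beyond counting error was not detected. A Ptges UMI was found in 40.6% of Tom+ and 41.1% of Tom- thinned stromal cells, and in 8.50% and 10.2% of mesothelial cells.

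Ptgds (ENSMUSG00000015090), lipocalin-type prostaglandin D synthase, was the only one of the 6 genes that was higher in Tom+ stromal cells. Stromal cells had 22.9 CPM (21.6 to 24.2) in the Tom+ and 5.01 CPM (4.45 to 5.62) in the Tom- library, and mesothelial cells 23.3 CPM (19.4 to 27.8) and 29.1 CPM (27.2 to 31.0). The Tom- stromal cells were the lowest of the 4 groups. The Tom+ over Tom- ratio in stromal cells was 4.57-fold, a log2 ratio of 2.19 (2.0 to 2.38) at percentile 99.8. A Ptgds UMI was found in 7.80% of Tom+ and 2.76% of Tom- thinned stromal cells (11.5% and 3.62% without thinning), at a mean of 0.183 and 0.0412 UMIs per thinned cell. At this depth a cell without a UMI cannot be called negative. The highest count in a stromal cell was 76 UMIs in the Tom+ and 14 in the Tom- library.

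Seen as a mixture, the synthase transcripts of mesothelial cells were almost all Ptgis, 96.3% of the Ptges, Ptgis and Ptgds UMIs in Tom+ and 95.4% in Tom-. These are 3′ tag counts, about 1 per captured molecule whatever the gene length, and capture may still differ between genes. In stromal cells the mixture was 59.1% Ptgis, 31.1% Ptges and 9.76% Ptgds in Tom+, and 72.0%, 26.3% and 1.75% in Tom-. Other synthases were not part of it, such as Ptges3, at 147 (Tom+) and 146 CPM (Tom-) in stromal and 202 and 189 CPM in mesothelial cells. Ptgs2 made up 96.9% (Tom+) and 96.4% (Tom-) of cyclooxygenase UMIs in stromal cells, and 74.5% and 79.4% in mesothelial cells.

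The receptors were sparse. Ptger4 (ENSMUSG00000039942, chr15:5206661-5244187), a receptor for prostaglandin E2 that raises cyclic AMP, had a stromal level of 11.6 CPM (10.7 to 12.6) in the Tom+ and 13.1 CPM (12.2 to 14.1) in the Tom- library, and a mesothelial level of 9.58 CPM (7.13 to 12.6) and 7.97 CPM (7.03 to 9.01). Between the libraries its log2 ratio was -0.17 (-0.33 to -0.01) in stromal and 0.26 (-0.20 to 0.70) in mesothelial cells. Ptger2 (ENSMUSG00000037759, chr14:44988195-45003820), the other cyclic AMP-raising receptor for prostaglandin E2, was at 2.37 CPM (1.97 to 2.83) and 2.92 CPM (2.50 to 3.40) in stromal cells, and rested on 6 and 20 UMIs in mesothelial cells. Ptgfr (ENSMUSG00000028036, chr3:151796502-151837630), the prostaglandin F receptor, was at 1.23 CPM and 0.916 CPM in stromal cells, from 63 and 53 UMIs. Mesothelial cells held 1 and 2 UMIs of it, so its level there was not detectable beyond a few counts.

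Stromal cells of both libraries were clustered on genes that excluded the 8, without correction between libraries, and gave 14 clusters, numbered here from the highest to the lowest share of Tom+ cells. Clusters 2, 3 and 7 were led by immunoglobulin, mast cell (Mcpt4, Tpsb2) and macrophage (Lyz2, C1qa) genes. Ptgs2 was concentrated in 3 clusters: cluster 12 (led by Cpxm2, Mfap4, Lcn2, Il33 and Il6) at 975 CPM (959 to 991), cluster 8 (Krtdap, Dact2, Efhd1, Gm15675 and Dmkn) at 821 CPM (805 to 837) and cluster 11 (Vdr, Adamts9, Usp2, Thbd and Pde10a) at 801 CPM (783 to 820). The intervals of clusters 8 and 11 overlapped. Cluster 8 was interstitial progenitor-like: its summed level of Dpp4, Pi16, Sema3c, Cd55 and Anxa3 was 4179 CPM, against 1323 CPM in the next, cluster 6. The lowest level was in the mast cell cluster 3, with 1 UMI in its 17 Tom+ and 10 Tom- cells. Outside the clusters led by immune genes, Ptgs2 was lowest in cluster 1 (led by Rab3b, Chchd10, Sox4, Edn1 and Mdk), at 39.7 CPM, and next at 64.9 CPM in cluster 13 (P2ry1, Rem1, G0s2, Vtn and Ppp1r14a).

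Ptgs1 and Ptgis shared the interstitial progenitor-like cluster with Ptgs2, and Ptges did not. Ptgs1 was highest in cluster 8, at 47.9 CPM (44.2 to 51.8), and in cluster 14 (Ccl21a, Cfd, Calca, Serpinb2 and Ncam1), at 43.5 CPM (36.3 to 51.7), with overlapping intervals. Cluster 8 alone held 42.1% of stromal Ptgs1 UMIs. Ptgis was highest in cluster 14 at 458 CPM (434 to 483) and then in cluster 8 at 334 CPM (324 to 344). Cluster 14 was mixed: of its 38 Tom+ and 226 Tom- cells, 101 held 3 or more immune marker UMIs. Scrublet marked 8 cells of the cluster as doublets. Its mesothelial (66.2 CPM) and endothelial (88.3 CPM) marker sums were the highest of the 14 clusters, and its immune sum was 634 CPM. The part of this mixture in its Ptgs1 and Ptgis levels was not tested. Ptges was highest in cluster 13, at 110 CPM, and in cluster 10 (Fbxl18, Gm16486, Arc, Igf1 and Gnai1), at 97.5 CPM, and was at 55.0 CPM in cluster 8 and 39.7 CPM in cluster 14. Ptgds was highest in cluster 5 (Pi15, Pdlim3, Myh11, Cpe and Ptgds itself), at 56.2 CPM (51.6 to 61.1), which held 38.0% of its stromal UMIs, and then in cluster 1 at 26.8 CPM (23.7 to 30.2).

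**Figure D3:**
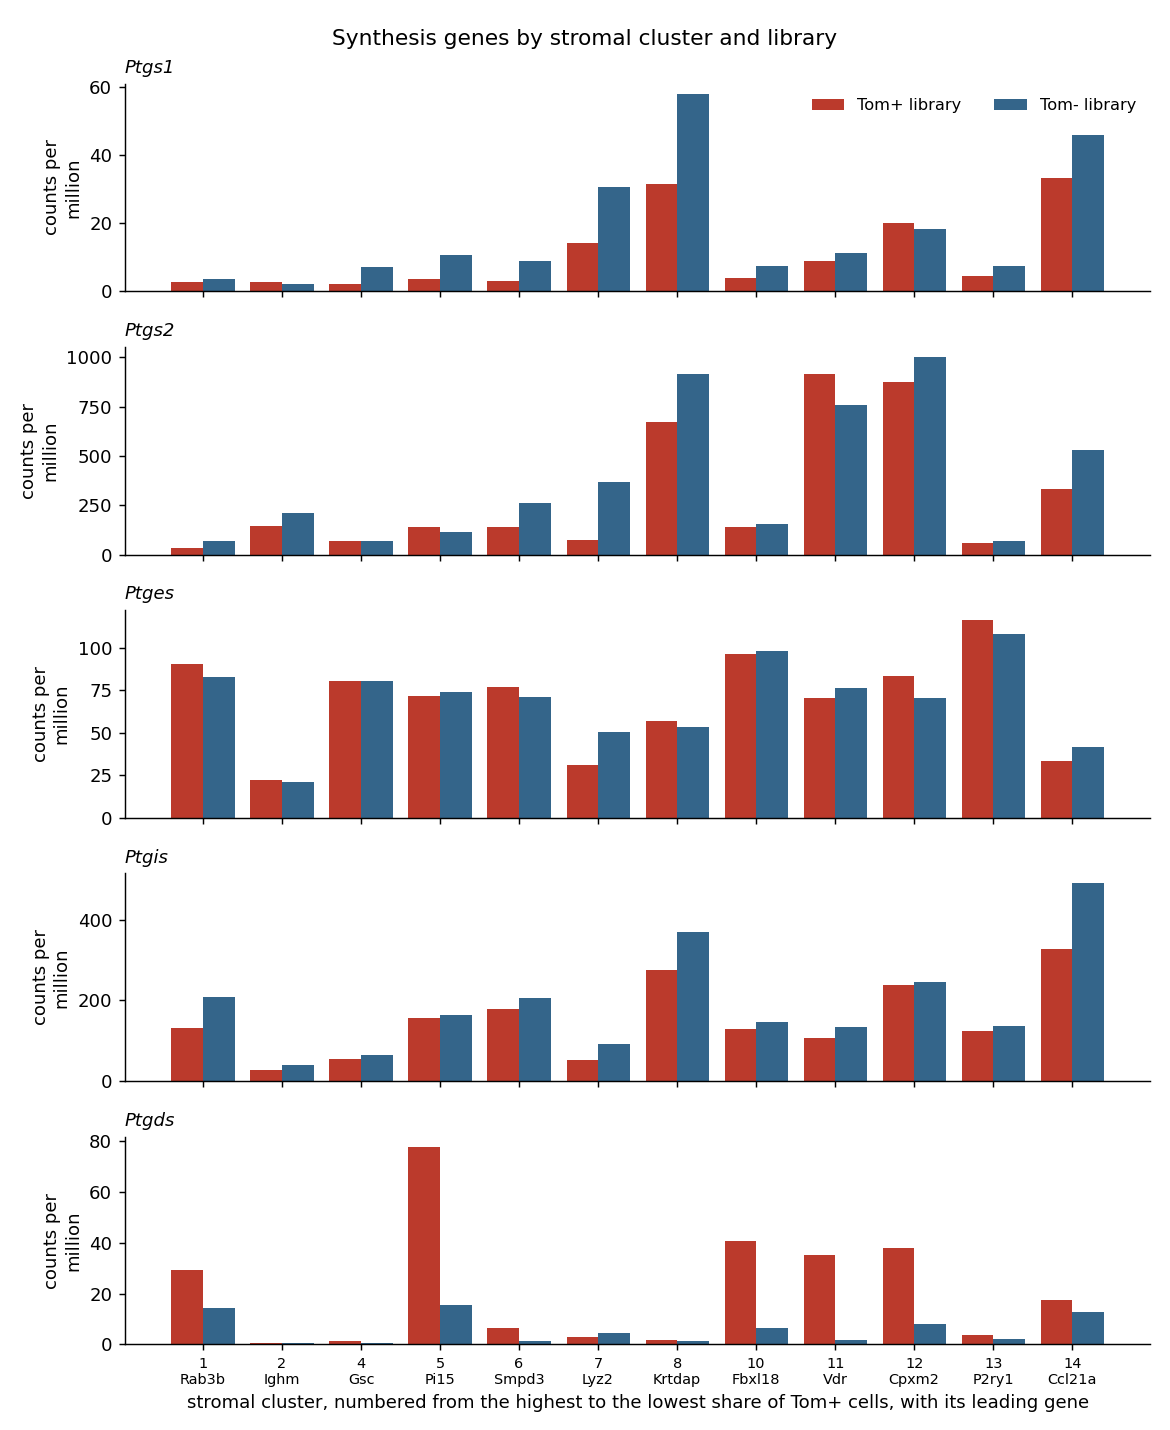
CPM of the 5 synthesis genes in the Tom+ (red) and Tom- (blue) cells of the 12 stromal clusters with at least 30 cells of each library; each cluster is named by its leading gene. Ptgs2 is high in clusters 8, 11 and 12 in both libraries, and the Tom+ bar of Ptgds is taller than the Tom- bar in 10 of 12 clusters.

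Within clusters, the direction between the libraries held for Ptgis and mostly for Ptgs1 and Ptgds, and was mixed for Ptgs2. In the 12 clusters with at least 30 cells of each library, Ptgis was lower in Tom+ in 12, and in 9 of these the counting interval lay below 0. Ptgs1 was lower in 10 clusters, with the interval below 0 in 5 and above 0 in 0. Ptgds was higher in 10, with the interval above 0 in 6, and in cluster 5 its level was 77.9 CPM in the Tom+ and 15.5 CPM in the Tom- cells. Ptgs2 was lower in 9, with the interval below 0 in 8, but higher beyond counting error in 2: cluster 11 (918 against 761 CPM) and cluster 5 (141 against 116 CPM).

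The Ptgs2 difference was smaller within groups of clusters than over all stromal cells. Clusters 8, 11 and 12 held 77.8% of stromal Ptgs2 UMIs, and held 23.0% of Tom+ (21.5 to 24.4) and 45.3% of Tom- stromal cells (43.8 to 46.7). Inside these clusters Ptgs2 had a level of 787 CPM (Tom+) and 914 CPM (Tom-), a log2 ratio of -0.22 (-0.25 to -0.18). Outside them it was at 103 and 161 CPM, a log2 ratio of -0.65 (-0.71 to -0.59). With each cluster weighted equally the log2 ratio of Ptgs2 was -0.33, within 1.5-fold, while that of Ptgs1 was -0.69, of Ptgis -0.35 and of Ptgds 1.89. The clusters were found from genes that can differ between the libraries, so these shares of cells are not a measure of cell type abundance.

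**Figure D4:**
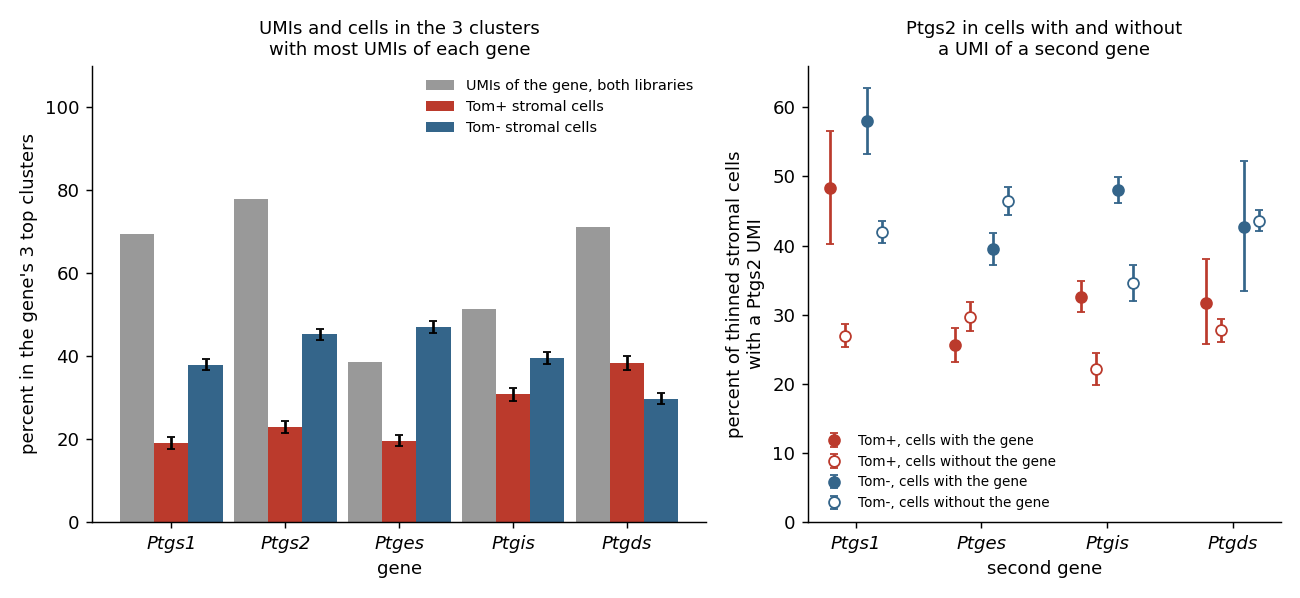
Left, for each gene, the percent of its stromal UMIs (grey) and of Tom+ (red) and Tom- (blue) stromal cells that lie in the 3 clusters with most of its UMIs; bars on the cell shares are 95% Clopper-Pearson intervals. Right, percent of thinned stromal cells with a Ptgs2 UMI among cells with (filled) and without (open) a UMI of a second gene. For Ptgs2, 77.8% of UMIs lie in clusters that hold 23.0% of Tom+ and 45.3% of Tom- cells, and Ptgs2 was found more often in cells with Ptgs1 or Ptgis than in those without.

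Over all stromal clusters pooled, a Ptgs2 UMI was more frequent in cells with Ptgs1 or Ptgis, and not in cells with Ptges. Among thinned Tom+ cells, a Ptgs2 UMI was found in 48.4% of those with a Ptgs1 UMI (40.2 to 56.6) and in 27.0% of those without (25.3 to 28.6). The Tom- shares were 58.0% and 41.9%. For Ptgis the shares with and without were 32.6% and 22.1% in Tom+, and 48.1% and 34.6% in Tom-. For Ptges the order was turned, 25.6% and 29.7% in Tom+ (with overlapping intervals), and 39.5% and 46.5% in Tom-. For Ptgds, Ptger2, Ptger4 and Ptgfr the intervals with and without overlapped in both libraries.

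Ptgs2 is also a gene that responds to tissue dissociation, so 18 immediate-early and heat shock genes were measured beside it. They summed to 32756 CPM in Tom+ and 39937 CPM in Tom- stromal cells, and 17 of 18 were lower in Tom+. Of the 18, 4 were at least 1.5-fold lower (3.25% of all genes tested). Their median log2 ratio was -0.34, against 0.07 over all genes. Stromal cells were cut into 3 bands by the share of their UMIs from these genes. From the lowest to the highest band the log2 ratio of Ptgs2 was -1.22, -1.43 and -0.85, and that of Ptgs1 -1.64, -1.40 and -0.98. That of Ptgds was 2.23, 2.28 and 1.79. The part of the dissociation response in these differences was not tested. The 10 immune markers summed higher in Tom+ stromal cells (476 against 230 CPM), though of these Cd52 was lower (13.2 against 21.6 CPM). Without the cells called immune or rich in immunoglobulin, the log2 ratio was -0.99 for Ptgs2, -1.17 for Ptgs1, -0.44 for Ptgis and 2.38 for Ptgds. Without cells whose barcode was found in both libraries, the ratios were -0.95, -1.15, -0.44 and 2.30.

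Across the 22 groups formed by the stromal clusters and the mesothelial cells in each library, the genes most like each member were ranked by Pearson correlation over 5873 genes. The groups share libraries and depth, so these values are descriptive. Ptgs1 was most like Dmkn (r = 0.94), Cd200 (0.94) and Bst2 (0.91). Ptgs2 was most like Has1, a hyaluronan synthase (0.90), Opa3 (0.89) and Dot1l (0.88). Ptgis was most like Efna5 (0.97), Hspb1 (0.95) and Efemp1 (0.93), and Ptges like Entpd2 (0.97), Scn7a (0.96) and Fam198b (0.96). Ptgds was most like Cpz (0.86), Pdlim3 (0.84) and Col4a6 (0.84). Values were lower for the sparse receptors, for which Des (0.77) ranked highest with Ptger2, Tpbg (0.78) with Ptger4 and Mospd1 (0.79) with Ptgfr.

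A list of 35 other genes of the pathway set these results among their neighbours. In stromal cells 22 of them were expressed at 5 CPM or more, and 2 were at least 1.5-fold higher (3.86% of all genes tested) and 0 at least 1.5-fold lower (3.25%) in Tom+ than in Tom-. Their median log2 ratio was -0.01, against 0.07 over all genes. Both are transporters: Slco2a1, which takes up prostaglandins, was at 82.7 and 47.8 CPM, and Abcc4, which exports them, at 15.9 and 8.24 CPM. Upstream, the phospholipase Pla2g4a was at 30.3 and 34.1 CPM in stromal cells and at 105 and 106 CPM in mesothelial cells. Downstream, Hpgd, the dehydrogenase that inactivates prostaglandins, was at 201 and 184 CPM in stromal cells and at 16.3 and 23.6 CPM in mesothelial cells, 12.3-fold and 7.83-fold lower. The mesothelial pattern of high Ptgs1 and Ptgis was thus found beside high Pla2g4a and low Hpgd. Mesothelial cells also had more of the uptake transporter Slco2a1 (124 and 109 CPM) than stromal cells, and less of the exporter Abcc4 (2.63 and 3.25 CPM). Levels of these transcripts do not measure how much prostaglandin is made or cleared. Among receptors on the list, Ptger3, which lowers cyclic AMP, was at 46.8 and 48.3 CPM in mesothelial and at 3.97 and 5.55 CPM in stromal cells, and the prostacyclin receptor Ptgir was at 5.58 and 6.72 CPM in stromal and 0.564 and 1.24 CPM in mesothelial cells. In all, 7 of 23 list genes were at least 2-fold higher (13.1% of all genes tested) and 3 at least 2-fold lower (10.1%) in mesothelial than in stromal cells of the Tom+ library. The 7 include Pla2g2d and Alox5ap, whose UMIs lay in only 12 and 15 of the 250 mesothelial cells there. In the Tom- library 5 of 20 were higher (11.9%) and 2 lower (9.22%).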

How the data were processed

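Cells sorted as CD31- CD45- and Tom+ or Tom- were sequenced as 1 droplet library each. The authors deposited UMI counts per gene and barcode, not normalized, and the submitters' processing notes name Cell Ranger 3.0.2 and the mm10 genome. Whether doublets were removed before deposit is not given in the sources used here.

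The genes and lists were chosen with earlier results of these data known. Counts were summed per class and library in Python 3.11.15 with scipy 1.17.1. Levels have exact Poisson intervals, and shares and ratios exact Clopper-Pearson intervals. Ratios across genes used genes whose mean reached 5 CPM. Shares were computed after thinning each cell to 7461 UMIs, which left out 264 Tom+ and 628 Tom- stromal cells and 3 and 96 mesothelial cells. Stromal cells were clustered with scanpy 1.11.5 (2000 variable genes, 30 principal components, Leiden resolution 0.8). Scrublet marked 2 Tom+ cells, a share of 0.0568% and too few to rely on, and 122 Tom- cells (1.82%), and doublets were kept. Named were the 8 genes, some genes of the pathway list at 5 CPM or more in a class, and the 3 genes most like each member. Other list genes at that level, such as Akr1b3 and Anxa1, entered only the counts. On Poisson counts simulated from the stromal sums, with 200 of 9778 genes changed, 95.5% of the ratio intervals covered the set value. The draws held only the counting error that the intervals assume. They therefore check the computation and say nothing of variation between cells or libraries. Coordinates are from GENCODE vM21 and promoter sequences from RefSeq.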

Additional observations from a re-analysis of the deposited data

Results flagged for a closer look

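Ptgs1 and Ptgds had opposite directions between the libraries in the 2 cell classes. The log2 ratio of Ptgs1, Tom+ over Tom-, was -1.26 in stromal and 0.15 in mesothelial cells. That of Ptgds was 2.19 in stromal and -0.32 in mesothelial cells. These are differences between single libraries, and the difference between the classes was not tested. Without cells whose barcode was found in both libraries, the mesothelial ratio of Ptgds was -0.03 and that of Ptgs1 was 0.17.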

How the results depend on the processing

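Over 303 values of the 8 genes under other settings, 235 moved by less than counting error, 68 moved by more and 0 reversed beyond it. Settings that leave out the immune-led clusters, the barcodes found in both libraries or mesothelial cells with 3 or more Pdgfra UMIs were chosen after the data were seen. In stromal cells Ptgs2 came within 1.5-fold with each cluster weighted equally, and Ptgis passed 1.5-fold lower in Tom+ with median-of-ratios scaling. In mesothelial cells Ptger4 passed 1.5-fold higher in Tom+ with cells thinned to 1 depth and without barcodes found in both libraries (log2 ratio 0.78 and 0.74). The share of all genes past the limit under these settings is not given here. The cause was not tested. Leaving out mesothelial cells with 20 or more fibroblast marker UMIs gave no value, since it left 0 Tom+ and 1 Tom- cells. At the coarser clustering (Leiden resolution 0.4), Ptgis was lower in Tom+ in 6 of 6 clusters and Ptgs2 in 5 of 6. No paired analysis was possible because each sorted group is 1 library. Depth limits Ptger2 and Ptgfr, which rest on 1 to 20 UMIs in mesothelial cells.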

Other observations

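Hpgds, the haematopoietic prostaglandin D synthase, was at 335 CPM in the stromal cluster led by mast cell genes and 59.3 CPM in the one led by macrophage genes, and at no more than 1.52 CPM in each of the other 12. Ptgds, the lipocalin-type enzyme for the same product, was at 0 UMIs in the mast cell cluster, with an upper limit of 20.6 CPM. In the macrophage cluster it was at 3.44 CPM (0.937 to 8.80), from 4 UMIs. These counts are too few to show that Ptgds is absent from either cluster.

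In mesothelial cells 3 of 22 pathway genes were at least 1.5-fold higher in the Tom+ than in the Tom- library (1.87% of 10014 genes) and 0 at least 1.5-fold lower (1.16%). Each of the 3 was under 5 CPM in Tom- and reached the mean of 5 CPM only through its Tom+ level. Their count can therefore not be read against that share. Pla2g2d, a secreted phospholipase, was at 15.2 and 0.124 CPM, from 81 and 4 UMIs, and its Tom+ UMIs lay in 12 of 250 cells, 29 of them in 1 cell. Alox5ap, which presents arachidonic acid to lipoxygenase, was at 14.5 and 1.45 CPM, and its 77 Tom+ UMIs lay in 15 cells, 21 of them in 1 cell. Ltc4s, leukotriene C4 synthase, was at 10.7 and 1.14 CPM, and its 57 Tom+ UMIs lay in 14 cells, 23 of them in 1 cell. Over all mesothelial cells, the macrophage genes Lyz2 (275 and 10.8 CPM) and C1qa (128 and 5.28 CPM) were higher in Tom+. The 10 immune markers summed to 916 and 517 CPM. Of these only Cd74 was lower in Tom+ (411 and 492 CPM), and it made up most of the Tom- sum. The part of immune transcripts in the differences of Pla2g2d, Alox5ap and Ltc4s was not tested.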
